A study of Drosophila melanogaster with 6 samples.

Results

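The mRNAs described here encode the cytochrome bc1 complex (complex III of the mitochondrial electron transport chain) and cytochrome c. They are 10 gene rows, given by name, among the 16727 rows of the deposited count files. No threshold on measured values enters the rule, though earlier results of these data were known when the rows were chosen. The rows are CG4769 (Cyt-c1), RFeSP, CG3731 (UQCR-C1), CG4169 (UQCR-C2), CG7580 (UQCR-Q), CG14482 (UQCR-6.4), ox, CG3560 (UQCR-14), Cyt-c-p and Cyt-c-d, with the current symbol in parentheses where it differs. Of these, 8 had enough counts to be tested, 1 (Cyt-c-d) was close to the detection limit, and 1 (CG3560) is listed at 0 in every library.

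Poly(A) RNA from whole Drosophila larvae at 48 hr after egg laying was sequenced from 3 wt and 3 CG1603PBac libraries. CG1603PBac larvae were homozygous for an insertion of a splice-trapping PiggyBac element in the gene CG1603. CG1603 encodes a zinc finger protein, and the comparison asks which mRNAs depend on it. The mutant chromosome had been backcrossed to the w1118 strain for 6 generations, and homozygous larvae were recognised by the absence of a fluorescent balancer chromosome. Homozygotes arrest as second-instar larvae and die. The instar of the sequenced larvae is not given. The age of 48 hr is shared by both groups, and the strain of the wt larvae is given only as wt.

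The bc1 complex takes electrons from reduced coenzyme Q and passes them to cytochrome c, while it moves protons across the inner mitochondrial membrane. Its catalytic parts are cytochrome b, cytochrome c1 and the Rieske iron-sulfur protein. Cytochrome b is encoded by mitochondrial DNA, whose genes were not analysed here, and all the other subunits come from nuclear genes. The core proteins and several small subunits hold no electron carrier. Cytochrome c is a small heme protein that carries electrons from the bc1 complex to cytochrome c oxidase (complex IV).

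Each library held between 27100927 and 36016914 gene counts. Reads that did not align made up 8.39% to 9.09% of all reads in wt and 30.9% to 31.8% in CG1603PBac libraries. Levels are given as CPM (counts per 1000000) after scaling with TMM factors, and fold changes and adjusted p-values come from edgeR's quasi-likelihood test with Benjamini-Hochberg adjustment over the 11306 genes that passed a filter on low counts. A gene was called lower or higher at an adjusted p under 0.05. The targeted gene had 613, 493 and 571 counts in the wt libraries against 956, 999 and 1072 in the mutant ones (adjusted p = 0.000362 in edgeR for a log2 fold change of 0.57, SE 0.13). A count over the whole gene does not separate transcript ahead of the insertion from transcript beyond it and does not check the genotype labels.

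Every tested gene of the bc1 complex and cytochrome c had less mRNA in CG1603PBac larvae. All 8 were called lower, whereas 34.9% of all genes tested were called lower and 34.8% higher, and in all 8 every CG1603PBac library lay below every wt library, as in 36.3% of all genes tested. The mutant level ranged from 22.0% of wt for ox to 63.1% of wt for UQCR-C1. The median log2 fold change of the 8 genes was −1.39, against 0.06 for all genes tested. Of the 8, 6 were lower by more than 2-fold, against a background of 15.0%. Whole larvae were measured, so fewer cells of a type and less RNA per cell cannot be told apart.

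**Figure D1:**
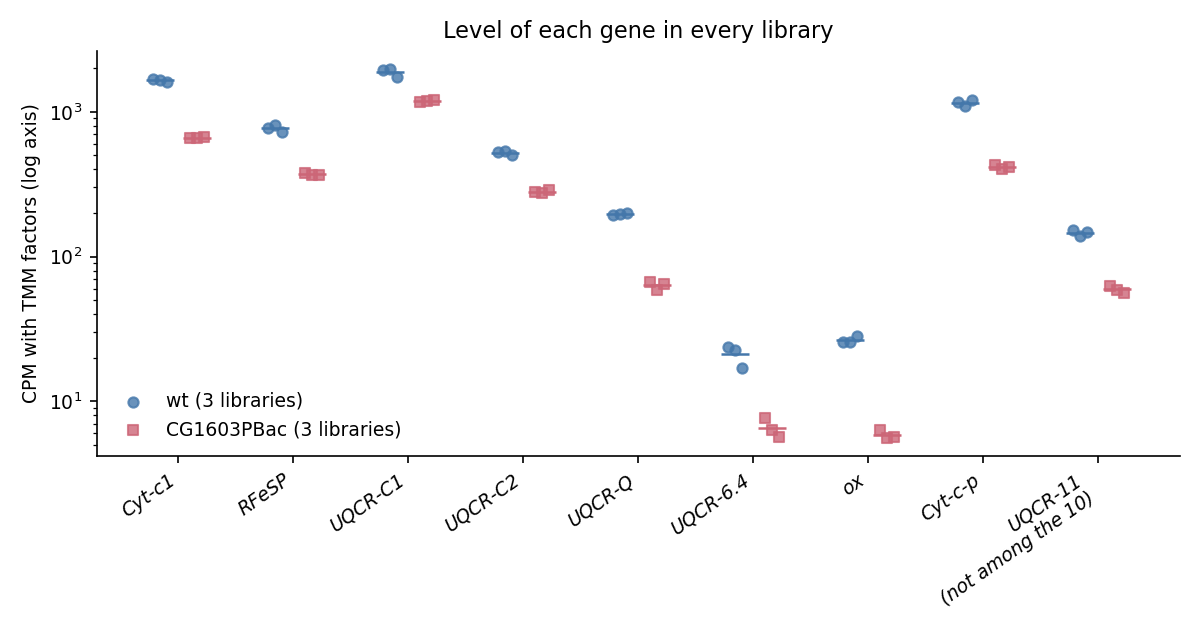
Level of each tested gene of the bc1 complex and cytochrome c, and of UQCR-11, in every library, in CPM with TMM factors on a log axis. Circles are the 3 wt libraries, squares the 3 CG1603PBac libraries and horizontal bars the group means. For each gene the CG1603PBac libraries lie below the wt libraries, and the vertical distance is smallest for UQCR-C1 (63.1% of wt) and largest for ox (22.0% of wt).

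The electron-carrying subunits fell to 40.0% of wt for Cyt-c1 and 47.8% of wt for RFeSP. Cyt-c1 (FBgn0035600, chromosome 3L, 5360211 to 5362798, plus strand, dm6 coordinates) encodes cytochrome c1, the heme protein that hands electrons to cytochrome c. Its level was 1674.5, 1664 and 1612 CPM in wt against 655, 658 and 666 CPM in the mutant libraries. The 3 mutant libraries were nearly equal and far below the lowest wt library. The log2 fold change was −1.32 (SE 0.04, adjusted p = 5.83e-18), with means of 1650.2 ± 33.5 and 660 ± 5.97 CPM (SD, n = 3).

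RFeSP (FBgn0021906, chromosome 2L, 1612429 to 1614160, minus strand) encodes the Rieske iron-sulfur protein, whose mobile head carries electrons from coenzyme Q to cytochrome c1. It was measured at 778, 816 and 727 CPM in wt against 379, 366 and 364 CPM in the mutant libraries, with no overlap between the genotypes. The log2 fold change was −1.07 (SE 0.05, adjusted p = 7.78e-15). This was the tested member closest to the 2-fold mark, and a test against a 2-fold change (glmTreat in edgeR) gave an adjusted p of 0.106.

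Of the 8 genes, those of the 2 core proteins fell least. UQCR-C1 (FBgn0038271, chromosome 3R, 14890231 to 14892387, plus strand) and UQCR-C2 (FBgn0250814, chromosome 3L, 16584124 to 16586111, plus strand) encode the large matrix-facing proteins of the complex, relatives of the mitochondrial processing peptidase. UQCR-C1 was the most abundant of the 10 by CPM, at 1942, 1971 and 1729.6 CPM in wt against 1170.5, 1189.7 and 1197.5 CPM in the mutant libraries. Its log2 fold change was −0.67 (SE 0.04, adjusted p = 1.14e-11). UQCR-C2 was measured at 531, 536 and 502 CPM in wt against 279, 273 and 289.7 CPM in the mutant libraries. Its log2 fold change was −0.90 (SE 0.04, adjusted p = 1.19e-13). Neither core protein mRNA passed the 2-fold mark, and in both the genotypes did not overlap.

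Among the 8 genes, the lowest fold changes were those of UQCR-Q, UQCR-6.4 and ox, which encode small subunits. UQCR-11, a subunit not among the 8, fell less (−1.30). UQCR-Q (FBgn0036728, chromosome 3L, 17474761 to 17476124, plus strand), whose mammalian counterpart helps to hold cytochrome b in the complex, was measured at 195, 196 and 201 CPM in wt. The CG1603PBac libraries held 67.0, 59.0 and 64.3 CPM of it. The log2 fold change was −1.64 (SE 0.06, adjusted p = 8.58e-16), and the spread within each genotype was small beside this difference.

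UQCR-6.4 (FBgn0034245, chromosome 2R, 17572096 to 17572784, minus strand) encodes a single-span membrane subunit. It was measured at 23.6, 22.6 and 17.1 CPM in wt against 7.69, 6.36 and 5.66 CPM in the mutant libraries. The wt library labelled replicate 3 was the lowest of its group, and it was still more than 2 times the highest mutant library. The log2 fold change was −1.68 (SE 0.18, adjusted p = 3.07e-08), within the standard error of that of UQCR-Q.

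The gene ox (oxen, FBgn0011227, chromosome 2R, 12757133 to 12757529, minus strand), the counterpart of mammalian UQCR10, encodes another small membrane subunit. It had 775, 744 and 839 counts in the wt libraries against 196, 203 and 232 in the mutant ones, or 25.7, 25.7 and 28.3 CPM against 6.31, 5.61 and 5.64 CPM. All 3 mutant libraries lay below a level of 7 CPM and all wt libraries above 25 CPM. The log2 fold change of −2.18 (SE 0.15, adjusted p = 2.65e-11) was the lowest of the 8 and stood at rank 332 from the bottom among the 11306 genes tested.

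Cytochrome c itself fell with the complex. Cyt-c-p (FBgn0284248, chromosome 2L, 16719932 to 16722644, plus strand) encodes the cytochrome c of most tissues. It was measured at 1161, 1095 and 1199 CPM in wt against 431, 405 and 417 CPM in the mutant libraries. The log2 fold change was −1.46 (SE 0.04, adjusted p = 1.57e-17), between those of cytochrome c1 and UQCR-Q.

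Cyt-c-d (FBgn0086907, chromosome 2L, 16715891 to 16719635, plus strand) ends 296 bases ahead of Cyt-c-p on the same strand and encodes the cytochrome c known from the male germ line, where it takes part in sperm maturation. It had 0, 13 and 5 counts in the wt libraries against 0, 3 and 0 in the mutant ones, and it did not pass the filter on low counts. A count of 0 allows a level of up to 0.0996 CPM in wt replicate 1 and of up to 0.0966 and 0.0729 CPM in CG1603PBac replicates 1 and 3. Summed over libraries, Cyt-c-d made up 0.0176% of the cytochrome c counts in wt (18 of 102232, 95% exact Clopper-Pearson interval 0.0104% to 0.0278%). In CG1603PBac larvae the share was 0.00664% (3 of 45193, interval 0.00137% to 0.0194%), and the intervals, which cover counting error only, overlap. Cytochrome c mRNA of these larvae was therefore counted almost wholly on Cyt-c-p. Markers of testis and male germ line were low in both genotypes, the sum over 18 genes being 21.9 to 26.1 CPM in wt against 17.8 to 20.9 CPM in the mutant. Of the 12 tested, 3 were called lower, 2 were called higher and 7 did not pass, where 34.9% of all genes tested were called lower and 34.8% higher. The part of germ cells in the Cyt-c-d counts was not tested.

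**Figure D2:**
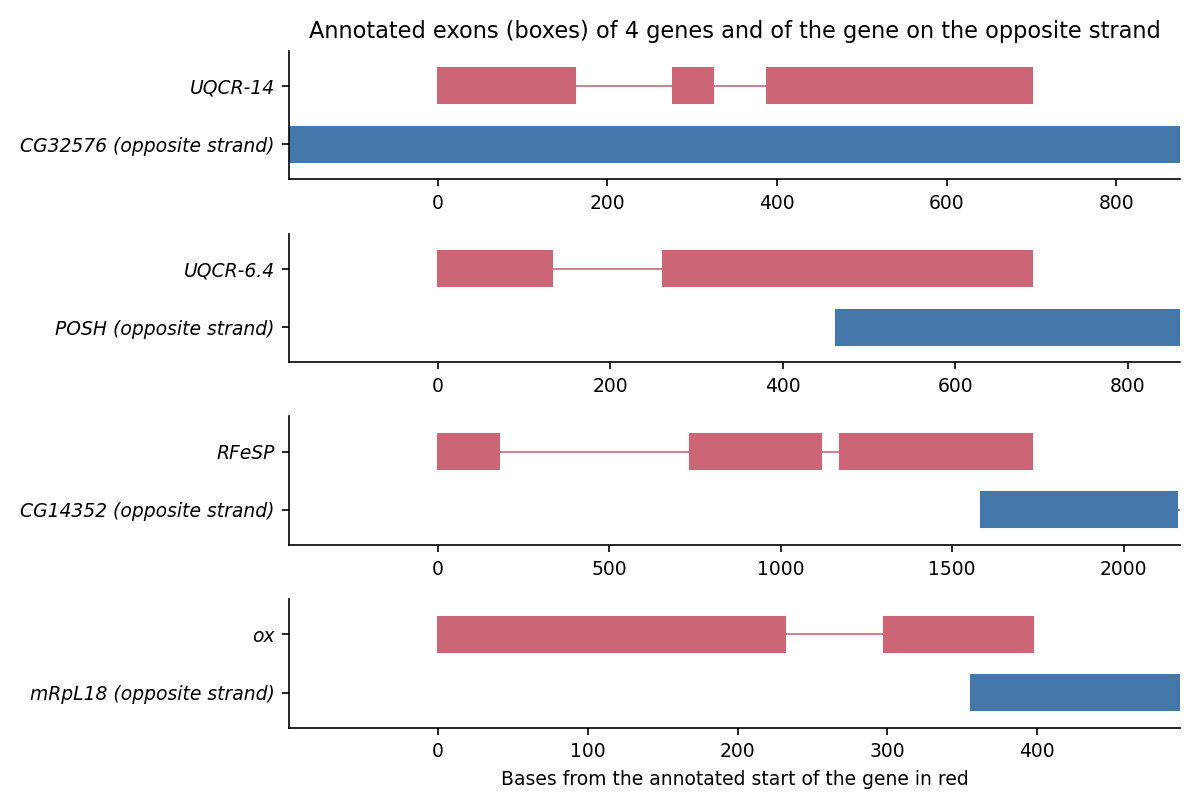
Annotated exons (boxes joined by lines) of UQCR-14, UQCR-6.4, RFeSP and ox in red and of the gene on the opposite strand in blue, in bases from the annotated start of the gene in red, with each panel on its own scale. The exons of UQCR-14 lie wholly within an exon of CG32576, whereas the other 3 genes share only the end of their last exon.

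CG3560 (UQCR-14, FBgn0030733, chromosome X, 16286288 to 16286988, plus strand), the counterpart of mammalian UQCRB, was listed at 0 in all 6 libraries, so its change could not be measured. All 523 of its exon bases lie within exons of CG32576, which is transcribed from the other strand. The sources used here do not say whether the counting used the strand of the reads. Of 70 protein-coding genes whose exons lie wholly within exons of genes on the opposite strand, 55 (78.6%) were at 0 in all 6 libraries. Of 9268 protein-coding genes with no exon overlap, 614 (6.63%) were at 0. No limit on the expression of UQCR-14 is drawn from its count of 0. CG32576 itself was measured at 34.4, 34.0 and 34.6 CPM in wt against 15.3, 15.0 and 16.0 CPM in the mutant libraries (log2 fold change −1.15, SE 0.12, adjusted p = 1.33e-08).

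Several other members share exon sequence with a gene on the opposite strand, as the map of annotated exons shows. Without strand, reads of the shared part fit both genes. Reads set aside as ambiguous between genes entered no gene row. They made up 1.87% to 1.90% of reads in wt and 1.38% to 1.39% in CG1603PBac libraries. The shared part was 40.5% of the exon bases of UQCR-6.4 (with POSH), 36.4% of Cyt-c-d (with CG31808), 13.2% of RFeSP (with CG14352), 12.4% of ox (with mRpL18) and 0.24% of UQCR-C2 (with Syx8). The partners did not move in a common direction, though POSH, CG31808 and Syx8 all rose. CG31808 rose from 28.3 ± 2.58 to 77.6 ± 4.87 CPM (log2 fold change 1.45, adjusted p = 7.43e-12 in edgeR). Syx8 rose from 23.8 ± 3.14 to 60.3 ± 3.70 CPM (log2 fold change 1.34, adjusted p = 2.8e-10 in edgeR). POSH rose from 17.0 ± 1.21 to 29.9 ± 1.40 CPM (SD, n = 3, log2 fold change 0.82, adjusted p = 4.13e-06 in edgeR). Conversely, mRpL18, which encodes a protein of the mitochondrial ribosome, fell from 49.3 ± 1.95 to 13.6 ± 0.372 CPM (log2 fold change −1.86, adjusted p = 1.62e-12 in edgeR). CG14352 held 3.17 ± 0.965 CPM in wt and 2.90 ± 0.450 CPM in the mutant (adjusted p = 0.756 in edgeR). Cyt-c1, UQCR-C1 and Cyt-c-p share no exon sequence with another gene, and UQCR-Q shares 2.05% with a gene on its own strand.

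Levels of different genes were compared per kilobase of annotated exon, summed over all annotated transcripts of a gene. In wt larvae Cyt-c-p was the highest at 1691 ± 77.3 CPM per kb (SD, n = 3). UQCR-C1 at 1152 ± 80.7 and Cyt-c1 at 1085 ± 22.0 CPM per kb came next and did not differ beyond their spread. They were followed by RFeSP at 692 ± 39.8, UQCR-C2 at 310.2 ± 11.0 and UQCR-Q at 203 ± 3.21 CPM per kb. The smallest subunits were the lowest, ox at 80.3 ± 4.59 and UQCR-6.4 at 37.6 ± 6.22 CPM per kb. The span from UQCR-6.4 to Cyt-c-p was thus 45.0-fold. Over only those exon bases that no other gene shares, an alternative chosen after seeing the data, UQCR-6.4 stood at 63.1 ± 10.4 CPM per kb and the span was 26.8-fold.

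In CG1603PBac larvae the order of these levels per kb changed at the top only. UQCR-C1 was then the highest at 727 ± 8.50 CPM per kb, above Cyt-c-p at 613 ± 19.1 and Cyt-c1 at 434 ± 3.93 CPM per kb. RFeSP at 331 ± 7.38, UQCR-C2 at 167 ± 4.87 and UQCR-Q at 65.1 ± 4.17 CPM per kb kept their places, ahead of ox at 17.7 ± 1.19 and UQCR-6.4 at 11.7 ± 1.84 CPM per kb. Over unshared exon bases, ox at 20.2 ± 1.36 and UQCR-6.4 at 19.7 ± 3.09 CPM per kb did not differ beyond their spread in the mutant.

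**Figure D3:**
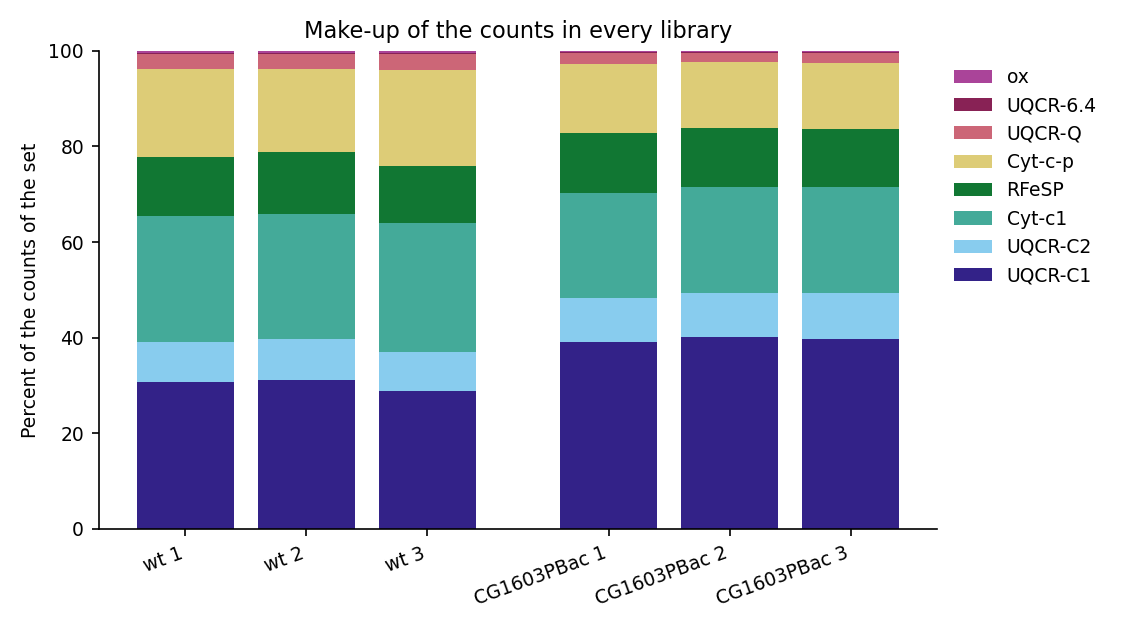
Share of each gene in the summed counts of the 10 rows, in percent, in every library (stacked bars that start at 0 and reach 100). UQCR-C1 takes 28.7% to 31.1% in the wt libraries and 39.1% to 40.1% in the CG1603PBac libraries, while the shares of Cyt-c1, Cyt-c-p and the small subunits are lower in the mutant.

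The make-up of the mRNA pool of the 10 rows therefore differed between the genotypes. Shares within the 10 rows do not depend on how libraries are scaled. The share of all gene counts does, as it rests on library totals. The 10 rows held 0.547%, 0.548% and 0.534% of all gene counts in wt and 0.343%, 0.341% and 0.344% in CG1603PBac libraries. Of the counts of the 10 rows, UQCR-C1 took 30.7%, 31.1% and 28.7% in wt against 39.1%, 40.1% and 39.8% in the mutant. The share of Cyt-c-p was 18.3%, 17.3% and 19.9% in wt against 14.4%, 13.7% and 13.8%. The share of ox was 0.406%, 0.406% and 0.471% in wt against 0.211%, 0.189% and 0.187%. UQCR-C1 and UQCR-C2 took a larger share in every mutant library than in any wt library, and Cyt-c1, Cyt-c-p, UQCR-Q, UQCR-6.4 and ox a smaller one. Only RFeSP among the tested genes kept an overlapping share, at 12.4 ± 0.421% and 12.4 ± 0.285% (SD, n = 3). A two-sided exact permutation test gave p = 0.1 for the total and for each of the 7 shares without overlap (0.143 adjusted over the 10 shares), and 0.1 is the smallest p that 3 libraries against 3 allow.

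**Figure D4:**
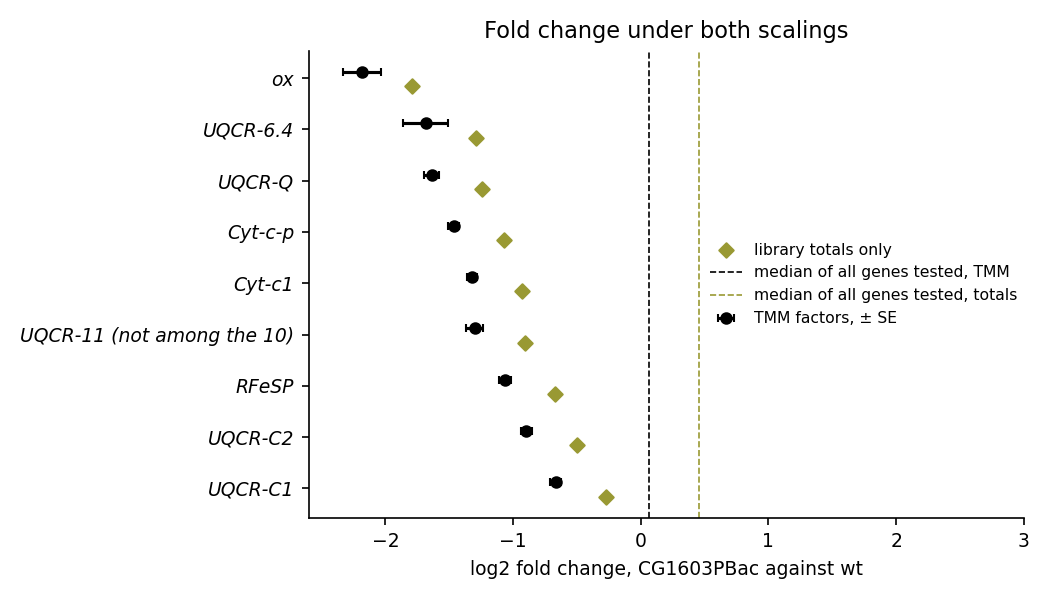
Log2 fold change of each tested gene and of UQCR-11, CG1603PBac against wt. Black circles with bars are values with TMM factors ± SE, diamonds are values with library totals only, and dashed lines are the medians of all genes tested under each scaling (0.06 and 0.45). All genes lie to the left of 0 under both scalings, from −2.18 for ox to −0.67 for UQCR-C1 with TMM factors.

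Scaling changed the size of the fall but not its direction. With library totals in place of TMM factors, the median of all genes tested moved from 0.06 to 0.45 on the log2 scale, a shift of 0.39, and the share of calls that were higher went from 49.9% to 68.7%. The 8 genes moved by nearly the same amount, to −1.79 for ox and −0.27 for UQCR-C1, and all 8 were still called lower. Their median was then −0.999, and 4 of them were lower by more than 2-fold.

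Among the 8 genes the change ran with exon length. Spearman's rho between exon length and log2 fold change was 0.93 over the 8 genes (Pearson's r with log2 length 0.90), the shortest falling most, against a rho of 0.18 over the 11251 genes tested that had a length. The 8 points share the same 6 libraries. After the trend of fold change on length over all genes was removed, ox stood at −2.40, UQCR-6.4 at −1.73 and UQCR-C1 at −0.65. The level in wt ran the same way, with a rho of 0.76 over the 8 genes, whereas over all genes tested the rho was −0.42. Among these 8 genes, those with lower wt levels thus tended to fall more, whereas over all genes tested those with higher wt levels tended to fall more. The wt level also enters the fold change, so level and fold change are not independent in either correlation. UQCR-11, a subunit of the complex not among the 8, stood at 146 CPM in wt with a log2 fold change of −1.30. It was left out of the correlations over the 8 genes.

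One further nuclear subunit of the complex was read from the row Ucrh (UQCR-11, chromosome 3L, 25120709 to 25126171, plus strand), the counterpart of the mammalian hinge protein that sits beside cytochrome c1. Ucrh is an older symbol of both UQCR-11 and UQCR-14, and the row was taken as UQCR-11 because UQCR-14 has the row CG3560. It fell from 146 ± 7.41 to 59.5 ± 3.29 CPM (SD, n = 3, log2 fold change −1.30, SE 0.07, adjusted p = 2.2e-13 in edgeR), close to Cyt-c1.

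Annotated paralogs of the subunits were barely expressed. UQCR-14L (CG17856) had 1 count in all wt and 2 counts in all CG1603PBac libraries. Cyt-c1L (CG14508), a paralog of Cyt-c1, had 70, 34 and 47 counts in wt against 31, 18 and 25 in the mutant libraries (log2 fold change −1.28, SE 0.66, adjusted p = 0.0908 in edgeR). It passed the threshold in DESeq2 and where at least 10 counts in every library were required. UQCR-11L (CG30354) had 41, 7 and 51 against 13, 5 and 3 counts (log2 fold change −2.41, SE 0.97, adjusted p = 0.0327 in edgeR). The second wt library fell below the first mutant library, and the call was lost without replicate 1 of wt (−2.24), replicate 3 of wt (−1.97), replicate 2 of CG1603PBac (−2.18) or replicate 3 of CG1603PBac (−1.99), while without replicate 1 of CG1603PBac the value was −3.35. It was also lost with the replicate block (−2.27), with library totals (−2.03) and with no filter on low counts (−2.40).

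Genes that build the complex were mostly lower. Of 6 genes for assembly and heme attachment, 4 were tested, 3 were called lower and 1 higher. Of all genes tested, 34.9% were called lower and 34.8% higher. Bcs1 (CG4908), whose yeast and mammalian counterparts insert the Rieske protein into the complex, fell from 46.1 ± 5.27 to 16.4 ± 1.90 CPM (SD, n = 3, log2 fold change −1.49, adjusted p = 4.64e-10 in edgeR). Uqcc1 (CG10075), related to an assembly factor that acts on cytochrome b, had a log2 fold change of −0.98 (adjusted p = 2.35e-08 in edgeR), and 46.3% of its exon bases overlap CG9948 on the opposite strand. Cchl, the lyase that attaches heme to c-type cytochromes, had a log2 fold change of −0.58 (adjusted p = 4.78e-07 in edgeR), and its substrates are the products of Cyt-c-p and Cyt-c1.

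The exception was Ttc19, related to a mammalian factor that clears fragments of the Rieske protein. It stood at 23.1 ± 0.827 CPM in wt against 29.0 ± 4.85 CPM in the mutant (log2 fold change 0.33, SE 0.13, adjusted p = 0.028 in edgeR). This call was lost without wt replicate 1 (0.30), wt replicate 2 (0.32), CG1603PBac replicate 2 (0.23) or CG1603PBac replicate 3 (0.30). The micropeptide genes sloth1 and sloth2, whose products take part in complex III assembly, were listed at 0 in all 6 libraries, and all exon bases of each are shared with the other on the same strand.

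Genes that make or reduce coenzyme Q, the electron donor of the complex, were mostly called lower. Of 11 genes of coenzyme Q synthesis, 9 were called lower and 2 higher, against 34.9% and 34.8% of all genes tested. Their median log2 fold change was −0.53. Of the 11, 2 were lower by more than 2-fold, a share close to the 15.0% of all genes tested. The lowest were Coq4 (CG32174) at −1.30 and Coq9 (CG30493) at −1.09, and the highest were Coq7 (COQ7), a hydroxylase of the pathway, at 0.39 and Coq6 (CG7277) at 0.31. With library totals, 5 of the 11 were called lower. Of 9 genes for dehydrogenases that reduce coenzyme Q, 8 were called lower, against 34.9% of all genes tested. In this list 0 were called higher, and the median was −1.04. The lowest were Gpo1 (Gpo-1), the mitochondrial glycerol-3-phosphate dehydrogenase, at −1.54 and Etf-QO, which receives electrons from fatty acid oxidation, at −1.52. The highest were Dhod at −0.33 and Sqor (CG14997) at −0.11 (adjusted p = 0.0973 in edgeR), and both lay above 0 with library totals, at 0.067 and 0.28.

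**Figure D5:**
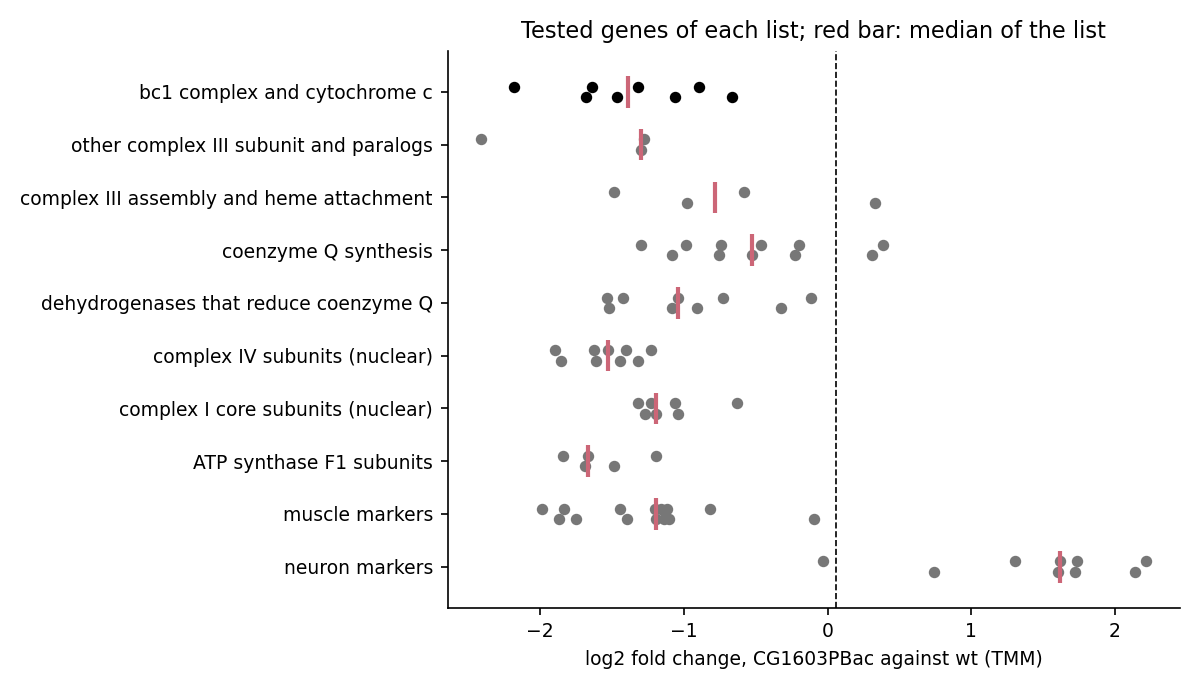
Log2 fold change (CG1603PBac against wt, TMM factors) of the tested genes of the bc1 complex and cytochrome c (black points) and of other lists (grey points), with the median of each list as a red bar and the median of all genes tested as a dashed line. The medians of the respiratory complexes lie between −1.67 (ATP synthase F1) and −1.19 (complex I core), with −1.39 for the bc1 complex and cytochrome c.

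Subunits of the neighbouring respiratory complexes were lower as well, where 34.9% of all genes tested were called lower. Of the nuclear subunits of complex IV, 9 of 9 were called lower, with a median log2 fold change of −1.53. Their range ran from COX8 (CoVIII) at −1.90 and cype at −1.85 to COX7C (CoVIIc) at −1.32 and COX5B (CoVb) at −1.23. Of the core subunits of complex I, 7 of 7 were called lower (median −1.19), from ND-30 (NDUFS3) at −1.32 and ND-23 (ND23) at −1.27 to ND-20 (CG9172) at −1.04 and ND-51 (CG9140), which binds NADH, at −0.63. Of the F1 part of ATP synthase, 5 of 5 were called lower (median −1.67), from sun at −1.85 and blw at −1.69 to ATPsyndelta (l(1)G0230) at −1.49 and ATPsyngamma (ATPsyn-gamma) at −1.19. These lists were chosen with earlier results of the same data known.

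Ratios of summed counts set the bc1 complex beside its neighbours without any scaling. The log2 ratio of Cyt-c-p to the bc1 subunits was −2.15, −2.26 and −2.01 in wt against −2.57, −2.66 and −2.64 in the mutant libraries, a difference of −0.48. The log2 ratio of the bc1 subunits to complex IV was 0.28, 0.33 and 0.29 in wt and 0.82, 0.82 and 0.84 in the mutant, a difference of 0.53. The summed bc1 counts thus fell less than those of cytochrome c or complex IV, with no overlap between genotypes in either ratio. To F1 ATP synthase the log2 ratio was −1.90, −1.91 and −1.93 against −1.29, −1.30 and −1.26, a difference of 0.63. To the complex I core it was 0.90, 0.90 and 0.84 against 0.90, 0.92 and 0.92, which overlap. Two-sided exact permutation tests gave p = 0.1, the smallest possible, for the ratios of cytochrome c to bc1, bc1 to complex IV and bc1 to F1 (0.133 adjusted over the 4 ratios) and p = 0.3 for the ratio to complex I.

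In a ratio of sums the abundant mRNAs weigh most. When each gene counted equally (mean of log2 CPM), the differences shrank to −0.14 for cytochrome c to bc1, 0.22 for bc1 to complex IV and 0.25 for bc1 to F1, and that for bc1 to complex I turned to −0.22.

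Outside the lists, the 5 genes whose profile over the 6 libraries lay closest to the mean profile of the 8 fallen genes were CG9350 (ND-B14.7), pwn, Mdh2, CG8778 and CG8888, ranked by the root mean square distance of centred log2 CPM among 8867 genes. CG9350, an accessory subunit of complex I, was nearest at a distance of 0.0174 and fell from 179 to 70.9 CPM. The gene pwn came next at 0.0215 and fell from 92.1 to 36.2 CPM. Mdh2, the mitochondrial malate dehydrogenase, lay at 0.0249 and fell from 2147 to 864 CPM. After it came CG8778 at 0.0277 (91.15 to 35.4 CPM) and CG8888 at 0.0291 (354.3 to 137.55 CPM). Among the 8 genes themselves the distance ran from 0.0362 for Cyt-c1 to 0.3825 for ox, so Cyt-c1 followed the mean of the group most closely.

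Markers of muscle were lower in the mutant, and most markers of neurons were higher. All 14 muscle markers were called lower, against 34.9% of all genes tested, with a median log2 fold change of −1.20. Their summed level was 73024 to 78269 CPM in wt against 27976 to 28087 CPM in the mutant. The range ran from the troponin C gene TpnC47D at −1.99 and Act87E at −1.87 to Mf at −0.82 and the titin-like sls at −0.09, and none of the 14 was at 0. The call of sls was weak (adjusted p = 0.0311 in edgeR). Its fall was smaller than the shift of 0.39 that library totals gave over all genes tested. Of 9 neuron markers, 8 were called higher, against 34.8% of all genes tested, and 1 did not pass (median 1.62). Their summed levels were 499 to 564 CPM in wt and 1141 to 1189.9 CPM in the mutant. Of 7 fat body markers, 5 were tested and 2 were called lower, Lsp1beta at −2.09 and apolpp (Rfabg) at −2.06, against 34.9% of all genes. The others, Lsp1gamma at −0.07, Fbp2 at 1.10 and Lsp1alpha at 1.72, did not pass, and the median was −0.07. Few counts lay behind Fbp2 (15 in wt, 39 in the mutant) and Lsp1alpha (52 in wt, 198 in the mutant). The summed level, nearly all of it apolpp (2156 ± 172 CPM in wt, 517 ± 19.2 CPM in the mutant), was 2074 to 2437 CPM in wt and 509 to 569 CPM in the mutant, and Fbp1 was at 0 in all 6 libraries. Muscle, neurons and fat body were thus represented in the RNA of these whole larvae. The part of tissue make-up in the fall of the bc1 and cytochrome c mRNAs was not tested.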

How the data were processed

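RNA was measured in 6 libraries of whole larvae, 3 wt and 3 CG1603PBac, which the labels name biological replicates. The authors used FastQC for read quality, STAR for alignment to dm6 and HTSeq for counting, and deposited the raw counts of each gene without normalization. The strand setting and annotation version of the counting are not given in the sources used here. Rows that name no gene (20.2% to 21.0% of reads in wt, 44.8% to 45.5% in CG1603PBac) entered neither library sizes nor tests.

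Counts were filtered (filterByExpr defaults, minimum count 10) and scaled with TMM factors. The genotypes were compared in edgeR 4.0.16 under R 4.3.3 (quasi-likelihood F test, robust, genotype as the only term, Benjamini-Hochberg adjustment). The steps were tested on simulated data. Shares and ratios were tested with exact permutation tests in SciPy 1.17.1. Profiles used log2(CPM + 0.5). Replicates differed from each other beyond sampling noise in all pairs (chi-square per gene 7.46 to 17.0), so all 6 libraries were used. Intervals and limits from counts cover counting error only.

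Of the 16727 rows, 16557 matched the Ensembl annotation BDGP6.54, which has dm6 coordinates. Exon lengths and overlaps come from it. The members and lists were chosen with earlier results of these data known. Genes named are all 10 members, their paralogs, the 2 lowest and 2 highest of each other pathway list, the 5 nearest profiles (mean CPM at least 5) and CG1603. Marker genes named and genes overlapping members were chosen after their values were seen. As alternatives, DESeq2 1.42.0, its size factors in edgeR, library totals, upper quartile factors, no filter, a minimum of 10 counts in each library, limma-voom (limma 3.58.1), a replicate block, removal of a length trend (loess, span 0.5) with and without the block, each library left out, and glmTreat for a 2-fold change were run. Shares and ratios had their own.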

Additional observations from a re-analysis of the deposited data

How the results depend on the processing

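The 8 tested members were called lower under each of the 16 other settings run, and each kept its direction (128 of 128 values). Their number lower by more than 2-fold was 6 as reported, 5 with glmTreat or upper quartile factors and 4 with library totals. The replicate block left their median at −1.39. Same-numbered libraries did not deviate together (correlations of 0.0057, −0.020 and −0.0084), so the counts gave no sign of pairing by number. Such correlations cannot show whether those libraries were prepared together. With the block 8 members were called lower. Library totals moved the members' median to −0.999, took Dhod to 0.067, Sqor (CG14997) to 0.28 and CG14352 to 0.26, and left 5 lower genes of coenzyme Q synthesis and 1 of the other subunit and paralogs. That last count, 2 as reported, was 3 with DESeq2 and also 1 with no filter, with the replicate block with and without length trend removal, and between 1 and 2 when single libraries were left out. CG14352 ran from −0.32 to 0.11 when single libraries were left out.

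The fall in the share of all counts was −0.33 percentage points without the 100 highest genes, against −0.20. Dividing counts by exon length gave log2 changes of share of −0.17 for Cyt-c1 (CG4769), 0.49 for UQCR-C1, 0.25 for UQCR-C2, −0.49 for UQCR-Q and 0.086 for RFeSP. The change of the RFeSP share, −0.0065 with all libraries, ran from −0.026 to 0.021 when single libraries were left out. With equal weight per gene the log2 ratios differed by −0.14, 0.22, −0.22 and 0.25 for cytochrome c to bc1 and for bc1 to complex IV, complex I and F1. The causes were not tested. Depth limits Cyt-c-d and the paralogs, whose levels rest on few counts.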
